A study of Bos indicus x Bos taurus with 20 samples.

Results

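The change in polyadenylated RNA between the 2-cell and the 8-cell stage was measured by RNA-seq in bovine embryos (Bos indicus x Bos taurus) that had been injected with vehicle as zygotes. These embryos are called Control. The comparison set 2 Control 8-cell libraries against 2 Control 2-cell libraries, which were 4 of the 20 samples of the series and were chosen by the treatment and stage in their titles. The study asked what METTL7A, a methyltransferase given as mRNA made in vitro, does in bovine preimplantation embryos, and its METTL7A-injected embryos of the same stages (2 libraries each) are used here as a second, separate stage comparison. All embryos were labelled as wild type and all groups were injected as zygotes, so no uninjected embryo enters. Neither the number of embryos in a library nor whether replicates came from separate collections is given in the labels, so p-values rest on a spread between libraries that may be technical. That spread was estimated in 1 fit over all 4 groups of 2-cell and 8-cell libraries, with the METTL7A-injected embryos included. Levels are given as CPM, counts divided by the TMM-scaled library size and brought to a common total. They are shares of the polyadenylated RNA of a library and not amounts per embryo, and fewer cells of a type and less RNA per cell cannot be told apart in them. Where 2 values of a stage are given, replicate 1 comes first.

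The first cell cycles of a mammalian embryo run on RNA and protein stored in the oocyte, and the embryo's own genome is transcribed strongly only later. In cattle the major wave of this genome activation is known to fall around the 8-cell stage, so that a 2-cell embryo still holds mostly maternal RNA. Maternal RNA is removed in steps, by deadenylation through the CCR4-NOT complex and its adaptors and then by decay, while the first embryonic transcripts include transcription factors of the paired-like homeobox and Kruppel-like families and the genes for ribosomes, splicing and energy metabolism.

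The 4 Control libraries held between 16926578 and 20737404 gene counts. The 2-cell libraries were nearly alike. Of the genes tested, 0 differed more than 2-fold between them once 1 CPM was added to each value. That addition damps ratios of genes at low levels, some of which were more than 2-fold apart in plain CPM. Their counts differed with a chi-square of 2.41 per degree of freedom. The 8-cell libraries differed far more, with 5136 genes (31.8%) more than 2-fold apart by the same measure and a chi-square of 299.2 per degree of freedom. Between METTL7A libraries it was 41.6 at the 2-cell and 51.4 at the 8-cell stage. All 4 groups shared the estimate of the spread, so p-values do not reflect the spread of the Control 8-cell libraries alone. Control 8-cell replicate 2 was closer to METTL7A 8-cell replicate 1, at a chi-square of 72.0 per degree of freedom, than to Control 8-cell replicate 1. Replicate 1 held lower shares of maternal and genome activation transcripts, with list medians of 0.509 and 0.504 times the CPM of replicate 2, and higher shares of oxidative phosphorylation genes (4.32 times), interferon genes (3.32 times) and fibroblast and matrix genes (5.95 times). Both 8-cell values are therefore given for most genes, and the value without replicate 1 or replicate 2 for some of the results that it moves. Among all genes tested at 1 CPM or more the median ratio of replicate 1 to replicate 2 was 0.998, whereas it was 1.73 among the risen genes and 2.88 among those that rose at least 16-fold.

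The RNA population was remodelled between the stages. Of 16149 genes tested, 8516 (52.7%) passed an adjusted p of 0.05, and 4834 (29.9%) rose and 3682 (22.8%) fell at the 8-cell stage. Rises were larger than falls. The median risen gene was 10.7-fold higher and 1993 risen genes passed 16-fold, whereas the median fallen gene was 4.03-fold lower and 167 fallen genes passed 16-fold. In 493 risen genes both 2-cell libraries had 0 counts, and in 35 fallen genes both 8-cell libraries had 0 counts. Such a gene passes the filter on low counts only through other groups, and its Control change can go in 1 direction only. Over all genes tested the median log2 fold change was 0.18, and the libraries of the stages did not overlap in 12752 genes (79.0%). Genes without a symbol, named only as LOC loci, made up 17.4% of the risen genes, 5.02% of the fallen genes and 14.6% of all genes tested. With only the Control libraries in the fit 6444 genes were called. The counts also depend on how much the 2-cell replicates are trusted as separate samples. With their counts summed into 1 sample 5404 genes were called, and without 2-cell replicate 1 or replicate 2 the counts were 5127 and 5174. Of the risen genes 2879 and 2899 kept their call in these last fits, and of the fallen genes 2231 and 2255. Without 8-cell replicate 1, 4005 of the risen and 3340 of the fallen genes kept their call and 3 risen genes turned their sign. The gene lists below lost calls in the same way without either 2-cell replicate, with 17 and 18 of 39 maternal genes fallen, 15 and 15 of 26 genome activation genes risen and 67 and 66 of 76 oxidative phosphorylation genes risen, but 79 and 79 of 80 ribosomal protein genes.

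**Figure D1:**
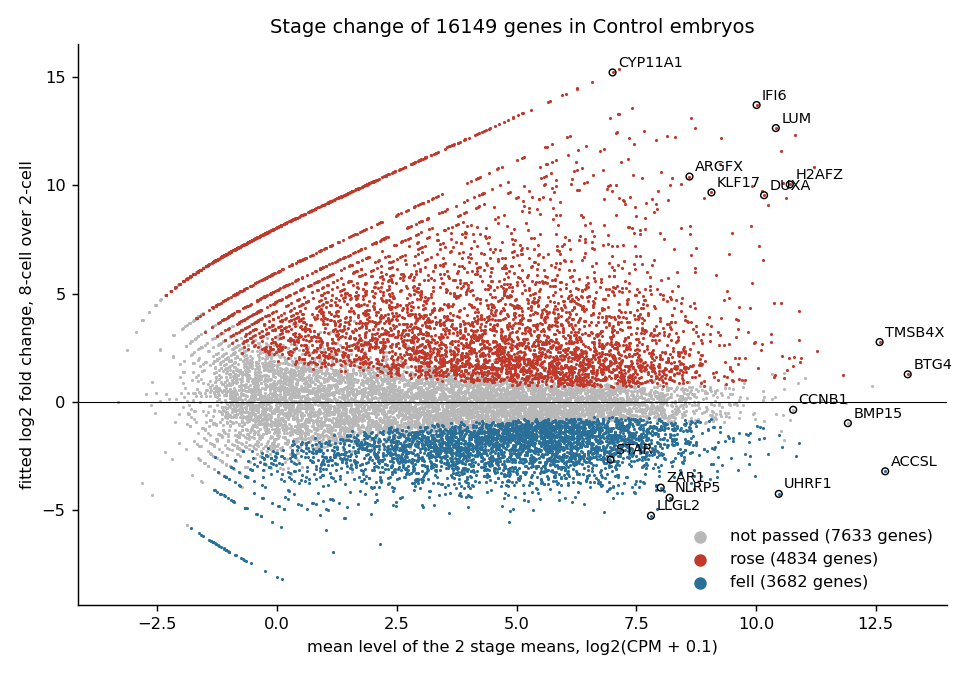
Fitted log2 fold change (8-cell over 2-cell, y axis) against the mean level of the stage means (log2 of CPM + 0.1, x axis) for the 16149 genes tested in Control embryos. Red points are the 4834 genes that rose, blue points the 3682 that fell and grey points those that did not pass, and the curved lines of points at the upper left are genes with 0 or a few counts in a stage, whose fitted values depend on the prior count.

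The called genes made up most of the RNA. The 4834 risen genes held 62.3% and 48.9% of the counts in the 8-cell libraries, against 11.96% and 11.94% in the 2-cell libraries. Reads are not independent molecules, and the 95% exact interval of the first of these shares, 62.3% to 62.4%, covers counting error only. The 3682 fallen genes held 8.82% and 13.6% in the 8-cell libraries, against 47.9% and 48.2% in the 2-cell libraries. These shares describe genes picked for their change and are no test of it. The METTL7A libraries were not in the contrast that called the genes, but they shared its filter, scaling and estimate of the spread. In them the same risen genes held 48.7% and 53.0% of the counts at the 8-cell stage, against 14.4% and 11.9% at the 2-cell stage. The fallen genes held 12.6% and 11.1% in these 8-cell libraries, against 37.3% and 42.7% at the 2-cell stage.

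**Figure D2:**
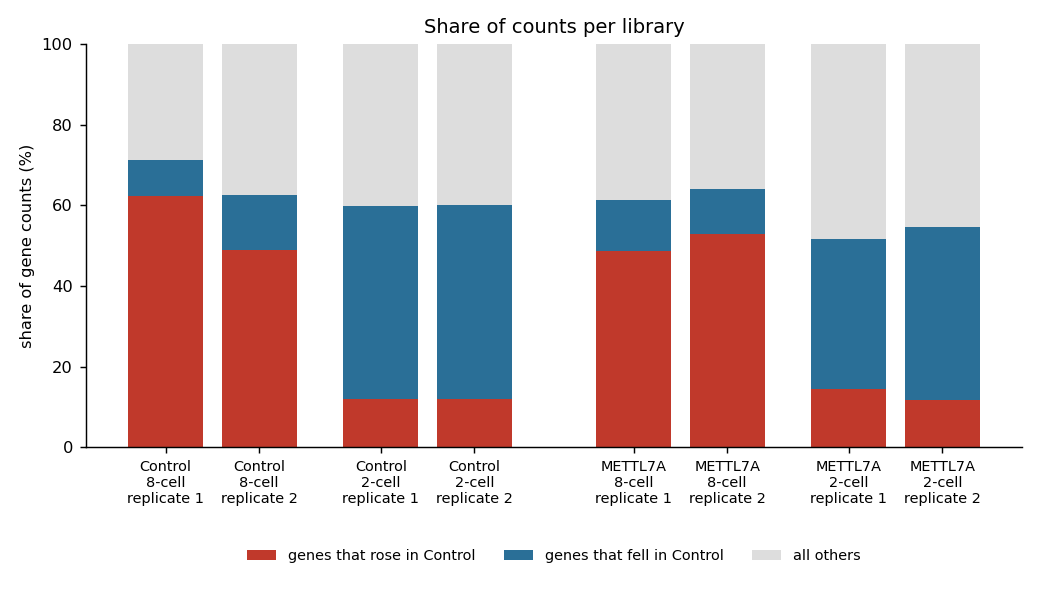
Share of gene counts (y axis, percent) held in each library by the genes that rose (red) and the genes that fell (blue) in Control embryos, with all other genes in grey, and 8-cell libraries left of 2-cell libraries for Control and for METTL7A-injected embryos. Risen genes held 48.7% to 62.3% of the counts of the 8-cell libraries and 11.9% to 14.4% of those of the 2-cell libraries.

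Maternal oocyte transcripts were lower at the 8-cell stage, though unevenly. Of 51 listed names 39 were found among the genes counted and tested. Of these 39 genes 22 fell, 3 rose and 14 did not pass, with a median log2 fold change of -1.47 beside 0.18 over all genes. The share that fell was 56.4% and the share that rose 7.69%, against 22.8% and 29.9% of all genes. ZAR1, which binds and stabilises stored maternal RNA, was at 24.6 and 38.3 CPM in the 8-cell libraries, against 476 and 491 CPM in the 2-cell libraries. NLRP5, also named MATER and a part of the subcortical maternal complex, was at 17.6 and 34.9 CPM, against 550.0 and 568 CPM. For both genes every 8-cell value lay far under every 2-cell value (log2 fold changes -3.94 ± 0.33 and -4.41 ± 0.45 (SE), adjusted p = 8.23e-05 and 0.000154). NLRP2, of the same NLRP family, fell by 4.09 on the log2 scale (adjusted p = 6.9e-05) and ASTL, the egg protease that cleaves the zona after fertilization, by 4.03 (adjusted p = 6.9e-05), and both were nearly equal in the 8-cell libraries, at 31.0 and 28.8 and at 27.1 and 28.3 CPM.

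Other oocyte genes kept high levels. GDF9, a growth factor secreted by the oocyte, fell to 272 and 535 CPM in the 8-cell libraries, against 1442 and 1463 CPM in the 2-cell libraries (log2 fold change -1.85 ± 0.41, adjusted p = 0.00491). Its paralog BMP15 was at 1249 and 3974 CPM, against 5190.4 and 5048 CPM, and did not pass (adjusted p = 0.127), though it fell without 8-cell replicate 2 (log2 fold change -2.08, adjusted p = 0.000131). H1FOO, the oocyte linker histone H1-8, fell to 199 and 479 CPM, against 748 and 774 CPM (adjusted p = 0.0359), a call lost without either 2-cell replicate (adjusted p = 0.107 and 0.114). DPPA3, a maternal factor that protects DNA methylation in the mouse zygote, was at 1559.5 and 4131 CPM, against 1318 and 1341 CPM (adjusted p = 0.0643), and rose without 8-cell replicate 1 (log2 fold change 1.62, adjusted p = 0.000328). ACCSL, chosen after its values were seen as one of the most abundant 2-cell transcripts, fell to 544 and 2072 CPM, against 11972 and 11937 CPM (log2 fold change -3.19 ± 0.59, adjusted p = 0.00203). In each of these genes the 2-cell libraries agreed closely and 8-cell replicate 1 had the lower 8-cell level. Without that library 22 of the 39 maternal genes fell and 7 rose, with a median of -0.79.

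Of 29 RNA storage genes 10 (34.5%) fell and 5 (17.2%) rose, against 22.8% and 29.9% of all genes, and without 8-cell replicate 2 the counts were 16 and 8. Of 41 deadenylation and decay genes 12 (29.3%) fell and 10 (24.4%) rose, shares close to those of all genes. The poly(A)-binding proteins moved apart. PABPC1L, the form found in oocytes and early embryos, was at 4.21 and 6.34 CPM in the 8-cell libraries, against 51.2 and 53.7 CPM in the 2-cell libraries (log2 fold change -3.31 ± 0.38, adjusted p = 0.000233). PABPC1, the somatic form, was at 302 and 225 CPM, against 50.2 and 44.5 CPM (2.48 ± 0.31, adjusted p = 0.000327). Both pairs of stages were without overlap, in opposite directions. PATL2, a repressor of translation in oocytes, fell to 8.53 and 21.5 CPM, against 127 and 131 CPM (adjusted p = 0.000619), and SYMPK, a scaffold of cytoplasmic polyadenylation, to 3.37 and 3.58 CPM, against 38.0 and 38.2 CPM (adjusted p = 0.000224).

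Among the decay genes all 4 listed members of the BTG family, which recruit the CCR4-NOT deadenylase, rose. BTG4, the member that drives maternal RNA clearance in the mouse, was among the most abundant transcripts at both stages, with 10069 and 15972 CPM in the 8-cell libraries, against 5558 and 5149 CPM in the 2-cell libraries (log2 fold change 1.28 ± 0.38, adjusted p = 0.0196). Its call was lost when either 2-cell replicate was left out (adjusted p = 0.126 and 0.16). BTG3 was at 148 and 90.4 CPM, against 0.0825 and 0.303 CPM, and BTG1 at 126 and 98.8 CPM, against 4.79 and 4.59 CPM (log2 fold changes 9.24 and 4.58, adjusted p = 4.04e-05 and 0.000112). BTG3 was thus close to absent at the 2-cell stage, while BTG4 was already high. UPF1, the helicase of nonsense-mediated decay, fell to 5.50 and 5.63 CPM, against 136 and 138 CPM (log2 fold change -4.62 ± 0.40, adjusted p = 9.37e-05). The deadenylase subunit CNOT6L, at 99.9 and 179 CPM, against 183 and 185 CPM, did not pass (adjusted p = 0.331, and 0.0102 without 8-cell replicate 2), nor did the deadenylase PARN (adjusted p = 0.656, and 0.0485 without 8-cell replicate 1).

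Of 31 genes of meiotic arrest and release 13 (41.9%) fell and 6 (19.4%) rose, against 22.8% and 29.9% of all genes. GPR3, the receptor that keeps the oocyte arrested through cyclic AMP, fell to 1.57 and 2.00 CPM in the 8-cell libraries, against 26.6 and 29.3 CPM in the 2-cell libraries (log2 fold change -3.97 ± 0.41, adjusted p = 0.000155). CDC25A, a phosphatase that activates cyclin-dependent kinases, fell to 15.3 and 26.8 CPM, against 275 and 287 CPM (adjusted p = 0.000248). FBXO43, or EMI2, which holds the egg in metaphase II, fell to 24.4 and 38.4 CPM, against 163 and 158 CPM (adjusted p = 0.000491). MOS, the kinase upstream of MAP kinase in the egg, was at 179.6 and 366 CPM, against 518 and 508 CPM, and did not pass (adjusted p = 0.0923). Cyclin B1 (CCNB1) was at 991 and 2086 CPM, against 2025 and 1904 CPM, and its stages overlapped (adjusted p = 0.46). Without 8-cell replicate 2 both MOS and CCNB1 fell (log2 fold changes -1.56 and -1.04, adjusted p = 0.00529 and 0.00274).

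Genome activation genes rose from very low 2-cell levels. Of 26 tested, 19 (73.1%) rose and 3 (11.5%) fell, against 29.9% and 22.8% of all genes, with a median log2 fold change of 3.41 (2.93 with genes at 0 counts placed at their bound). Of the 45 listed names 17, LEUTX, TPRX1 and KDM4E among them, were not found under those names among the genes counted, and 2 more did not pass the filter on low counts. DUXA, a paired-like homeobox factor, was at 994 and 3597 CPM in the 8-cell libraries, against 3.14 and 2.99 CPM in the 2-cell libraries (log2 fold change 9.55 ± 0.78, adjusted p = 8.02e-05). ARGFX, of the same class, was at 528 and 1033 CPM, against 0.784 and 0.346 CPM (10.41 ± 0.62, adjusted p = 3.95e-05), and KLF17, a Kruppel-like factor, at 465 and 1681 CPM, against 1.57 and 1.04 CPM (9.68 ± 0.77, adjusted p = 7.23e-05). None of these exceeded 3.14 CPM at the 2-cell stage, and all were higher in 8-cell replicate 2 than in replicate 1. MBD3L3, a germline relative of the methyl-CpG-binding protein MBD3, was among the most abundant, at 1259.7 and 4789 CPM, against 2.35 and 3.12 CPM (10.11 ± 0.83, adjusted p = 7.89e-05). EIF1AX, a translation initiation factor used as a marker of bovine genome activation, was at 472 and 391 CPM, against 10.4 and 10.6 CPM (5.36 ± 0.40, adjusted p = 6.66e-05). ZSCAN4, a factor of genome activation in human and mouse, was at 24.6 and 66.6 CPM, against 92.8 and 89.7 CPM, so that it was present before the 8-cell stage and did not pass (adjusted p = 0.0813, and 0.000599 without 8-cell replicate 2, when it fell). HSPA1A, an inducible chaperone known as an early transcript of the mouse zygote, fell to 27.6 and 28.2 CPM, against 349 and 357 CPM (adjusted p = 9.99e-05). Without 8-cell replicate 1 the list gave 18 rises and 3 falls. Many of these genes belong to families with near-identical copies, and reads may be split among them.

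**Figure D3:**
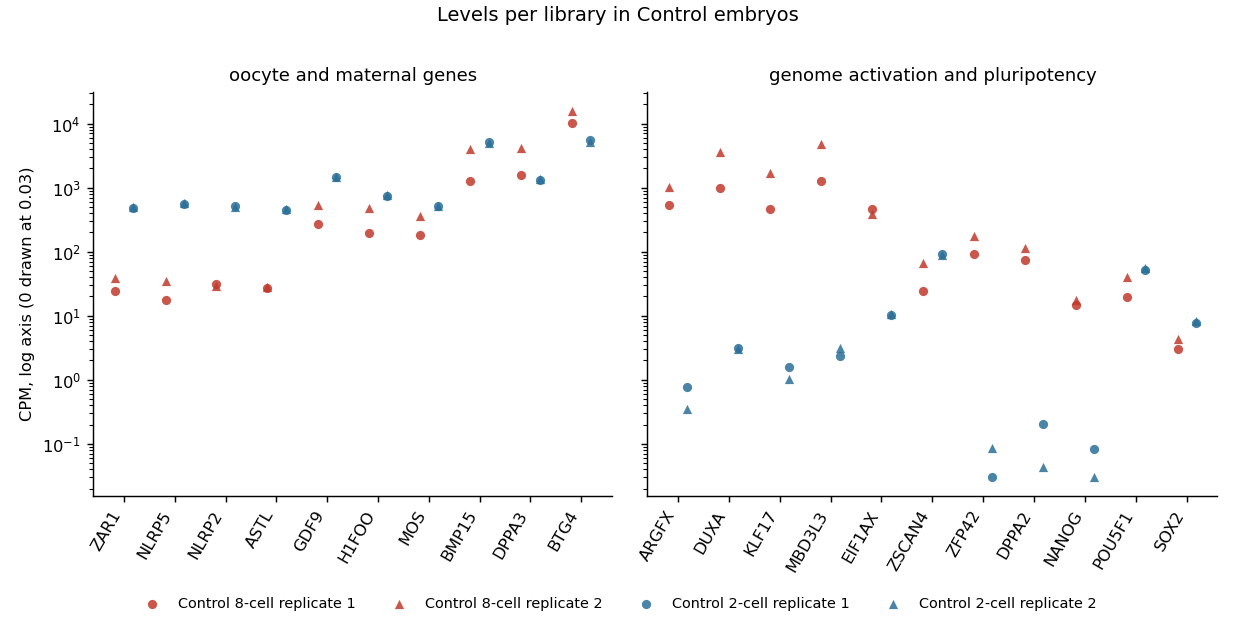
Level in each Control library (y axis, CPM on a log axis, with 0 drawn at 0.03) of oocyte and maternal genes (left) and of genome activation and pluripotency genes (right), with 8-cell libraries in red left of 2-cell libraries in blue, circles for replicate 1 and triangles for replicate 2. ZAR1, NLRP5, NLRP2 and ASTL stood at 17.6 to 38.3 CPM in the 8-cell libraries, all below the 2-cell libraries, while ARGFX, DUXA, KLF17 and MBD3L3 stood at 465 to 4789 CPM in the 8-cell libraries, all above the 2-cell libraries.

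Of 31 pluripotency genes 14 (45.2%) rose and 5 (16.1%) fell, against 29.9% and 22.8% of all genes, with a median of 1.10, and without 8-cell replicate 2 the counts were 13 and 10. ZFP42, also named REX1, was at 92.4 and 176 CPM in the 8-cell libraries, against 0 and 0.0865 CPM in the 2-cell libraries, which made it 3154 times higher (873 to 26052 by the 95% exact counting interval, adjusted p = 4.04e-05). DPPA2 was at 73.2 and 114 CPM, against 0.206 and 0.0433 CPM, and PRDM14 at 39.5 and 67.3 CPM, against 0.495 and 0.563 CPM (log2 fold changes 9.45 and 6.64, adjusted p = 3.95e-05 and 5.14e-05). NANOG, a core pluripotency factor, was at 14.5 and 17.5 CPM, against 0.0825 and 0 CPM, a ratio of 378 (104 to 3127, adjusted p = 0.000206). These 4 genes were close to absent at the 2-cell stage and clearly present in both 8-cell libraries. POU5F1 and SOX2, the other core factors, did not pass. POU5F1 was at 19.9 and 40.9 CPM, against 51.5 and 55.1 CPM, and SOX2 at 2.98 and 4.40 CPM, against 7.80 and 8.18 CPM (adjusted p = 0.0899 and 0.0726), and both fell without 8-cell replicate 2 (adjusted p = 0.00147 and 0.0211). KLF4 rose to 45.1 and 95.5 CPM, against 4.99 and 5.19 CPM (log2 fold change 3.79 ± 0.46, adjusted p = 0.00032), while KLF5, at 7.41 and 14.3 CPM, against 8.29 and 7.66 CPM, did not pass (adjusted p = 0.493).

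Of 23 trophectoderm genes 9 (39.1%) rose and 6 (26.1%) fell, against 29.9% and 22.8% of all genes, and without 8-cell replicate 2 the counts were 9 and 10. TFAP2C, a transcription factor of the trophectoderm, was at 36.4 and 117 CPM in the 8-cell libraries, against 0.165 and 0 CPM in the 2-cell libraries (log2 fold change 9.72 ± 1.01, adjusted p = 0.000172), and EOMES, a T-box factor, at 4.04 and 11.5 CPM, against 0.248 and 0.130 CPM (adjusted p = 0.000773). CDX2 and GATA3 did not pass. CDX2 was at 0.786 and 2.23 CPM, against 2.64 and 2.81 CPM, and GATA3 at 11.1 and 21.2 CPM, against 14.2 and 14.5 CPM (adjusted p = 0.319 and 0.725), and CDX2 fell without 8-cell replicate 2 (adjusted p = 0.045). The water channel AQP3, which later helps to fill the blastocyst cavity, fell (log2 fold change -4.41, adjusted p = 0.000751). Of 19 hypoblast genes 9 (47.4%) rose and 1 (5.26%) fell, and without 8-cell replicate 1, 8 rose and 2 fell. PDGFRA, the receptor of the hypoblast, was at 147 and 63.3 CPM, against 0.0825 and 0.0433 CPM, a ratio of 1671 (571 to 8107, adjusted p = 5.6e-05), and of 999 (341 to 4854) for replicate 2 alone. SPARC and APOA1, which many other cell types also make, were much higher in replicate 1, at 2144 and 298 CPM, against 0.949 and 0.216 CPM, and at 1466 and 129.5 CPM, against 0.165 and 0 CPM. The median of the hypoblast list was 2.16, and 0.65 without 8-cell replicate 1.

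Of 23 histone genes 10 (43.5%) rose and 6 (26.1%) fell, against 29.9% and 22.8% of all genes, and counts among their near-identical copies are uncertain. H2AFZ, the histone variant H2A.Z, was at 2848 and 3813 CPM in the 8-cell libraries, against 3.09 and 3.20 CPM in the 2-cell libraries (log2 fold change 10.04 ± 0.54, adjusted p = 3.26e-05). H3F3A, which encodes the replacement histone H3.3, rose to 919.8 and 1044 CPM, against 83.0 and 86.8 CPM (3.53 ± 0.39, adjusted p = 0.000217). H2AFZ was a trace at the 2-cell stage and among the most abundant transcripts of the 8-cell libraries, while H3F3A was present at both stages. Of 73 chromatin modifiers 15 (20.5%) rose and 28 (38.4%) fell. CBX3, the heterochromatin protein HP1 gamma, was at 246 and 134 CPM, against 0.866 and 0.692 CPM, CHD1, a remodeller of active genes, at 149 and 215 CPM, against 10.6 and 10.2 CPM, and SETD2, which adds the third methyl group to H3K36, at 86.6 and 119 CPM, against 8.00 and 9.22 CPM (log2 fold changes 7.92, 4.12 and 3.58, adjusted p = 3.95e-05, 9.11e-05 and 0.000159). The H3K9 methyltransferases EHMT1 and EHMT2 and the corepressor TRIM28, chosen after their values were seen, fell (log2 fold changes -3.33, -2.62 and -2.41, adjusted p = 0.00032, 0.000567 and 0.00543).

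Of 18 genes of the DNA methylation machinery 9 fell and 5 rose, where 22.8% and 29.9% of all genes did. UHRF1, which guides DNMT1 to newly replicated DNA, fell to 77.8 and 209 CPM in the 8-cell libraries, against 2698 and 2700.4 CPM in the 2-cell libraries (log2 fold change -4.23 ± 0.53, adjusted p = 0.000367). DNMT1 itself was at 188 and 245 CPM, against 298 and 299 CPM, and did not pass (adjusted p = 0.176, and 0.0211 without 8-cell replicate 2, when it fell). The de novo methyltransferases DNMT3A and DNMT3B fell, to 12.7 and 7.10 CPM, against 42.0 and 45.3 CPM, and to 4.72 and 16.3 CPM, against 95.9 and 93.3 CPM (log2 fold changes -2.14 and -3.17, adjusted p = 0.00208 and 0.00167). The dioxygenases that oxidise methylcytosine moved in opposite directions. TET3, the maternal form, fell to 7.24 and 14.7 CPM, against 93.4 and 98.4 CPM (-3.13 ± 0.44, adjusted p = 0.000594), and TET1 rose to 76.0 and 80.7 CPM, against 0.908 and 1.08 CPM (6.29 ± 0.36, adjusted p = 3.62e-05).

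Among 83 genes of the transcription machinery 34 (41.0%) rose and 19 (22.9%) fell, against 29.9% and 22.8% of all genes. POLR2A, the largest subunit of RNA polymerase II, fell to 14.9 and 24.5 CPM in the 8-cell libraries, against 101 and 110.1 CPM in the 2-cell libraries (log2 fold change -2.43 ± 0.40, adjusted p = 0.00129), while the small subunit POLR2K rose to 79.5 and 91.6 CPM, against 5.12 and 5.50 CPM (4.01 ± 0.34, adjusted p = 8.28e-05). Subunits of the polymerase thus moved in opposite directions. SUPT4H1, a subunit of the elongation factor DSIF, was at 409 and 1164 CPM, against 2.60 and 2.99 CPM (8.13 ± 0.61, adjusted p = 6.66e-05).  NELFB and CTDP1, a subunit of the pausing factor NELF and the phosphatase of the polymerase tail, were among the 10 named genes of lowest log2 fold change. NELFB was at 2.19 and 1.64 CPM, against 55.9 and 61.3 CPM, and CTDP1 at 2.25 and 1.29 CPM, against 48.8 and 51.2 CPM (-4.93 and -4.81, adjusted p = 0.00028 and 0.000297). Of 68 splicing genes 39 (57.4%) rose and 6 (8.82%) fell, the falls being 10 without 8-cell replicate 2. SRSF3, a serine and arginine rich splicing factor, was at 1306 and 3195 CPM, against 24.4 and 23.1 CPM, and SNRPB, a core protein of the spliceosomal particles, at 527 and 564 CPM, against 19.6 and 23.6 CPM (6.56 and 4.66, adjusted p = 9.37e-05 and 6.66e-05). Of 47 nuclear import genes 13 (27.7%) rose and 18 (38.3%) fell, with RAN, the GTPase that gives transport its direction, at 1875 and 1050.2 CPM, against 110.0 and 101 CPM (3.79 ± 0.38, adjusted p = 0.000153).

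Ribosomal protein genes rose almost without exception, and of the 35 lists theirs had the largest share of risen genes. Of 80 tested, 79 rose and 0 fell, with a median log2 fold change of 4.86. RPL26 was at 256 and 185 CPM in the 8-cell libraries, against 0.990 and 1.90 CPM in the 2-cell libraries (7.25 ± 0.48, adjusted p = 4.47e-05). The single gene that did not pass was RPL15, which already stood at 129.97 and 125 CPM in the 2-cell libraries and was at 269 and 142 CPM in the 8-cell libraries (adjusted p = 0.111, and 0.00334 without 8-cell replicate 2, when it rose). Without 8-cell replicate 1 the count was 79 rises and 0 falls and the median 4.07. Processed copies of these genes are common in mammalian genomes and reads may be shared with them. Of 113 genes that build ribosomes 51 (45.1%) rose and 25 (22.1%) fell, against 29.9% and 22.8% of all genes. NOP16, a nucleolar protein, was at 334 and 262 CPM, against 1.90 and 1.99 CPM, and TAF1D, of the selectivity factor of RNA polymerase I, at 54.1 and 85.8 CPM, against 0.0825 and 0.130 CPM (7.26 and 9.28, adjusted p = 2.3e-05 and 3.79e-05). The nucleolar protein nucleolin (NCL) was at 489 and 459 CPM, against 238 and 232 CPM (1.01 ± 0.29, adjusted p = 0.0156), a call lost without either 2-cell replicate (adjusted p = 0.127 and 0.146). UBTF, which opens ribosomal RNA genes, did not pass (adjusted p = 0.406, and 0.0214 without 8-cell replicate 2, when it fell).

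Of 48 translation initiation and elongation genes 30 (62.5%) rose and 6 (12.5%) fell, against 29.9% and 22.8% of all genes, EIF6, which keeps ribosomal subunits apart, being at 511 and 481 CPM in the 8-cell libraries, against 16.4 and 15.3 CPM in the 2-cell libraries (4.97 ± 0.49, adjusted p = 0.000137). EIF4A1 and EIF4G2, abundant at both stages, did not pass, at 654 and 995 CPM, against 786 and 769 CPM, and at 838 and 673 CPM, against 799 and 770.1 CPM (adjusted p = 0.868 and 0.921). Of 33 proteasome subunit genes 24 (72.7%) rose and 3 (9.09%) fell, with a median of 2.07, and of 1.47 without 8-cell replicate 1. PSMA1 was at 677 and 229 CPM, against 0.743 and 0.606 CPM (9.38 ± 0.67, adjusted p = 5.6e-05, and 8.37 without 8-cell replicate 1), whereas PSMC6 was already at 47.9 and 46.1 CPM in the 2-cell libraries and was at 413 and 379.6 CPM in the 8-cell libraries (3.07 ± 0.28, adjusted p = 0.000108).

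Genes of mitochondrial respiration rose broadly, and here the 8-cell libraries differed. Of 76 nuclear oxidative phosphorylation genes 72 (94.7%) rose and 0 fell, against 29.9% and 22.8% of all genes, with a median log2 fold change of 3.94, and 69 rose and 2 fell without 8-cell replicate 1, with a median of 2.57. NDUFB2, a subunit of complex I, was at 281 and 229 CPM in the 8-cell libraries, against 8.79 and 7.75 CPM in the 2-cell libraries (4.95 ± 0.36, adjusted p = 5.6e-05). UQCR10, of complex III, was at 302 and 86.3 CPM, against 1.24 and 1.69 CPM, and COX6B1, of complex IV, at 661 and 230.4 CPM, against 6.27 and 4.72 CPM (7.05 and 6.34, adjusted p = 0.000116 and 0.000108, and 5.86 and 5.37 without 8-cell replicate 1). The stages were apart in all 3 genes, and each was higher in replicate 1 than in replicate 2. SDHA, the catalytic subunit of complex II, was at 172 and 39.6 CPM, against 116 and 122 CPM, with overlapping stages (adjusted p = 0.81), and fell without 8-cell replicate 1 (log2 fold change -1.60, adjusted p = 0.00151). Of 78 mitochondrial ribosome genes 60 (76.9%) rose and 3 (3.85%) fell, and without 8-cell replicate 1, 52 rose and 4 fell. Of 44 genes of glycolysis and other energy metabolism 23 (52.3%) rose and 3 (6.82%) fell, and without 8-cell replicate 1, 16 rose and 6 fell. PGK1, a glycolytic kinase, was at 1443 and 227 CPM, against 11.1 and 11.7 CPM (6.19 ± 0.82, adjusted p = 0.000456, and 4.29 without 8-cell replicate 1), and SLC2A3, the glucose transporter GLUT3, at 195 and 576 CPM, against 12.7 and 13.1 CPM (4.90 ± 0.56, adjusted p = 0.000241). Citrate synthase (CS) fell to 188 and 162 CPM, against 822 and 849 CPM (-2.26 ± 0.30, adjusted p = 0.000423).

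Of 42 cell polarity genes 16 (38.1%) fell and 5 (11.9%) rose, against 22.8% and 29.9% of all genes, and without 8-cell replicate 2 the counts were 22 and 8. LLGL2, a scaffold of the basolateral domain, fell to 7.299 and 15.7 CPM in the 8-cell libraries, against 435 and 436 CPM in the 2-cell libraries (log2 fold change -5.24 ± 0.52, adjusted p = 0.000141). CRB3, of the apical Crumbs complex, fell to 3.26 and 4.64 CPM, against 30.0 and 30.2 CPM, and the tight junction protein TJP1 to 33.7 and 34.0 CPM, against 142 and 136 CPM (adjusted p = 0.000445 and 0.000627). Ezrin (EZR) and RHOA, which organise the cell cortex, were abundant at both stages and did not pass (adjusted p = 0.0993 and 0.703), though EZR fell without 8-cell replicate 2 (adjusted p = 0.00108).

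Of 59 cell cycle genes 20 (33.9%) rose and 11 (18.6%) fell, close to the 29.9% and 22.8% of all genes, and without 8-cell replicate 1, 19 rose and 17 fell. CCNE2, a G1 cyclin, was at 40.1 and 102 CPM in the 8-cell libraries, against 2.85 and 2.38 CPM in the 2-cell libraries (log2 fold change 4.76 ± 0.58, adjusted p = 0.00032). Of 51 DNA replication genes 12 (23.5%) fell, 6 (11.8%) rose and 33 did not pass, whereas without 8-cell replicate 1, 14 fell and 12 rose and without replicate 2, 19 fell and 10 rose. The replicative helicase was uneven. MCM2 fell to 9.99 and 6.81 CPM, against 147 and 149 CPM, and MCM5 to 14.9 and 17.7 CPM, against 161 and 169.5 CPM (-4.14 and -3.34, adjusted p = 0.000627 and 0.000182), while MCM6 was at 408 and 852 CPM, against 549.6 and 531 CPM, and did not pass (adjusted p = 0.658). DNA ligase 1 (LIG1) fell to 117 and 226 CPM, against 1828 and 1863 CPM (-3.43 ± 0.42, adjusted p = 0.000316). Of 64 spindle genes 17 (26.6%) rose and 12 (18.8%) fell, again close to all genes, and without 8-cell replicate 2, 18 rose and 19 fell. STAG2, a cohesin subunit, rose to 120.1 and 229 CPM, against 3.47 and 2.99 CPM, and TACC3, a spindle protein abundant in oocytes, fell to 457 and 647 CPM, against 2993 and 3182 CPM (5.75 and -2.48, adjusted p = 8.14e-05 and 0.00052). Aurora kinase A (AURKA) was at 2169 and 5234 CPM, against 3771 and 3898 CPM, and its stages overlapped (adjusted p = 0.93, and 0.0121 without 8-cell replicate 2, when it fell).

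Of 51 antioxidant genes 30 (58.8%) rose and 4 (7.84%) fell, against 29.9% and 22.8% of all genes, and without 8-cell replicate 1, 24 rose and 7 fell. Thioredoxin (TXN) was at 490.4 and 113 CPM in the 8-cell libraries, against 3.38 and 3.25 CPM in the 2-cell libraries (log2 fold change 6.50 ± 0.72, adjusted p = 0.00022, and 5.07 without 8-cell replicate 1), and the mitochondrial superoxide dismutase SOD2, at 84.4 and 97.4 CPM, against 138 and 129 CPM, did not pass (adjusted p = 0.141). Of 44 stress response genes 18 (40.9%) rose and 10 (22.7%) fell, with a median of 0.62, whereas without 8-cell replicate 1, 17 rose and 15 fell with a median of 0.01. DNAJB9, a chaperone of the endoplasmic reticulum, was at 152 and 130.1 CPM, against 0.0825 and 0.173 CPM, and DDIT3, the stress factor CHOP, at 349 and 456 CPM, against 42.3 and 45.7 CPM (10.04 and 3.19, adjusted p = 2.3e-05 and 0.000148). Both stood far above both 2-cell libraries in each 8-cell library. Of 32 apoptosis genes 12 rose and 8 fell, with DIABLO, an antagonist of caspase inhibitors, at 157 and 123 CPM, against 7.18 and 6.10 CPM, and APAF1, the core of the apoptosome, at 50.5 and 56.4 CPM, against 205 and 211 CPM (4.39 and -1.96, adjusted p = 6.9e-05 and 0.000568). Of 56 lipid genes 23 (41.1%) rose and 12 (21.4%) fell, and without 8-cell replicate 1 the count turned to 17 risen and 21 fallen. FABP3, a fatty acid carrier, was at 2957 and 641 CPM, against 86.6 and 88.4 CPM, and IDI1, of sterol synthesis, at 669.9 and 125 CPM, against 15.4 and 14.8 CPM (4.36 and 4.71, adjusted p = 0.000917 and 0.000744, and 2.86 and 3.03 without 8-cell replicate 1).

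**Figure D4:**
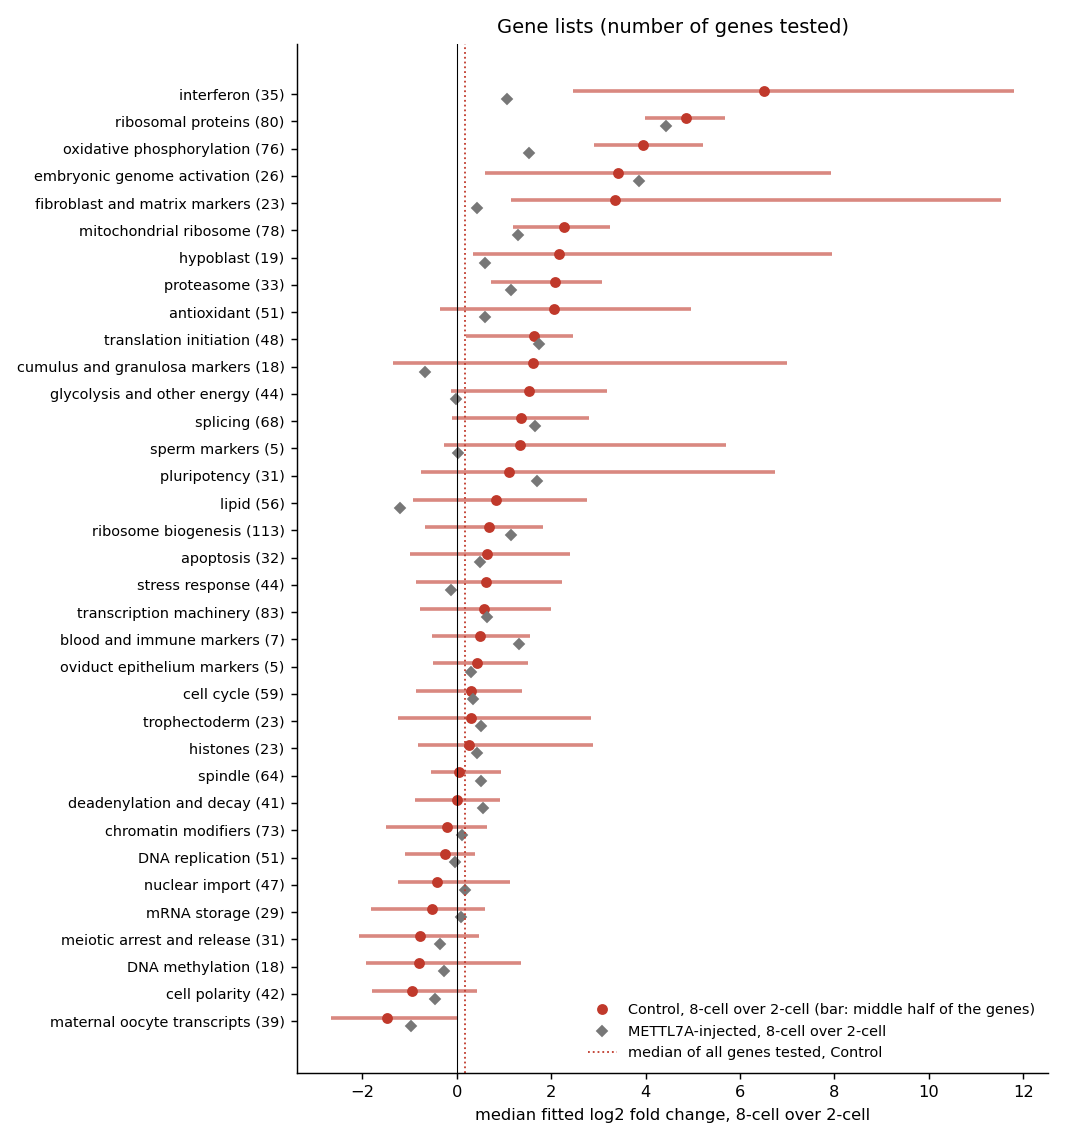
Median fitted log2 fold change (8-cell over 2-cell, x axis) of the genes tested in each of 35 gene lists (y axis, with the number of genes tested), as red circles with bars from the lower to the upper quartile of the genes for Control embryos and grey diamonds for METTL7A-injected embryos, and a dotted line at the median of all genes in Control (0.18). Ribosomal proteins had medians of 4.86 and 4.43 in Control and METTL7A-injected embryos, and interferon genes of 6.50 and 1.06.

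By the rule used for named genes, the 10 highest log2 fold changes belonged to CYP11A1, TAGLN, POSTN, SERPINB10, HSD11B1, ADAMTS1, TNFAIP6, IFITM3_1, IFI6 and VIM. CYP11A1, the enzyme that starts steroid synthesis, was at 464 and 49.5 CPM in the 8-cell libraries, against 0 counts in both 2-cell libraries, and was at least 4121-fold higher over both 8-cell libraries against a floor of 3 counts over the 2-cell group (adjusted p = 0.00068) and at least 782-fold higher in replicate 2 alone. In the METTL7A 8-cell libraries it was at 0.0739 and 0 CPM. SERPINB10 was at 304 and 2.41 CPM, against 0 counts, and rested on replicate 1 almost wholly, being at least 2471-fold higher over both libraries (adjusted p = 0.00658) and at least 38.0-fold higher in replicate 2 alone. Its call was lost when only the Control libraries were fitted (adjusted p = 0.081). POSTN, the matrix protein periostin, was the exception, at 120.2 and 188 CPM, against 0 counts, with the higher value in replicate 2 (at least 2417-fold, adjusted p = 6.66e-05). VIM, the intermediate filament vimentin, was at 612 and 64.3 CPM, against 0.0413 and 0 CPM, and was 16297 times higher (2924 to 643758 by the 95% exact counting interval, adjusted p = 0.000506) over both 8-cell libraries and 3043 times higher (545 to 120297) in replicate 2 alone. In all 10 genes but POSTN replicate 1 was above replicate 2, by 6.24 times in IFI6 up to 126 times in SERPINB10. The rule picked called genes of highest log2 fold change without overlap between the stages, so these folds and p-values describe the choice and test nothing. CYP11A1, TAGLN, SERPINB10 and IFITM3_1 had at most 2 counts over any other group. They passed the filter on low counts through the Control 8-cell libraries alone and could only rise.

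Of 35 interferon genes tested 28 rose and 3 fell, where 29.9% and 22.8% of all genes did, with a median log2 fold change of 6.50 (5.84 with genes at 0 counts placed at their bound), and 25 rose and 3 fell of 34 tested without 8-cell replicate 1, with a median of 5.01. Of these 35 genes 5 had 0 counts in a Control stage, where a change can go in 1 direction only. IFI6 and others had few counts outside the Control 8-cell libraries. The share that rose is therefore a description. The summed level of the interferon genes was 8899 and 1729 CPM in the 8-cell libraries, against 559 and 546 CPM in the 2-cell libraries, and 221 and 300.3 CPM in the METTL7A 8-cell libraries. IFI6, an antiviral protein of the endoplasmic reticulum, was at 3556 and 570.2 CPM, against 0.248 and 0.0433 CPM (13.71 ± 1.24, adjusted p = 0.000106, and 11.83 without 8-cell replicate 1), and IFITM1, which blocks viral entry, at 485 and 164 CPM, against 0.0413 and 0.0865 CPM, a ratio of 5173 (1769.6 to 25088, adjusted p = 6.9e-05), and of 2584 (883 to 12539.5) for replicate 2 alone. DHX58, a cytoplasmic RNA sensor, went the other way, at 14.8 and 22.9 CPM, against 332 and 331 CPM (-4.13 ± 0.32, adjusted p = 6.9e-05). The IFITM and OAS1 genes have near-identical copies, so that counts among them are uncertain.

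Markers of cells other than blastomeres were looked at in every library. Of 23 fibroblast and matrix markers tested of 28, 15 (65.2%) rose and 1 (4.35%) fell, against 29.9% and 22.8% of all genes. Their median log2 fold change was 3.34, and 1.26 without 8-cell replicate 1. Their sum was 6934 and 1227 CPM in the 8-cell libraries, against 285 and 287 CPM in the 2-cell libraries, and it was 160.1 and 207 CPM in the METTL7A 8-cell libraries. Of the 28 markers 23 and 18 reached 1 CPM in the Control 8-cell libraries, against 7 and 10 in the Control 2-cell libraries. LUM, the proteoglycan lumican, was the largest part, at 4782 and 667 CPM, against 0.784 and 0.0433 CPM (log2 fold change 12.65, adjusted p = 0.000343, and 10.59 without 8-cell replicate 1), and at 1.26 and 1.51 CPM in the METTL7A 8-cell libraries. Of 18 cumulus and granulosa markers tested of 24, 10 (55.6%) rose and 4 (22.2%) fell, the falls being close to the share of all genes. Their sums were 1808 and 523 CPM, against 811 and 813 CPM, and their median was 1.61, and 0.34 without 8-cell replicate 1. Of the tested markers 5 fibroblast and 3 cumulus genes had 0 counts in a Control stage. TAGLN of the fibroblast list and CYP11A1 of the cumulus list passed the filter on low counts through the Control 8-cell libraries alone. Neither could have been called as fallen. The risen shares of both lists include such genes, as does that of all genes, and are a description only. Within the cumulus list HSD3B1, a steroidogenic enzyme, was at 175 and 25.4 CPM, against 1.07 and 0.649 CPM (6.85 ± 0.92, adjusted p = 0.000479, and 4.85 without 8-cell replicate 1), while STAR, which brings cholesterol into mitochondria, fell to 33.2 and 34.9 CPM, against 214 and 216 CPM (-2.66 ± 0.27, adjusted p = 0.000144). Aromatase (CYP19A1), the defining enzyme of granulosa cells, was at 0.674 and 1.82 CPM, against 4.04 and 3.85 CPM (adjusted p = 0.0633, and 0.00995 without 8-cell replicate 2, when it fell). Blood and immune markers summed to 36.4 and 63.2 CPM, against 139.5 and 137 CPM, oviduct markers to 141 and 161 CPM, against 108 and 106 CPM, and sperm markers to 42.3 and 46.4 CPM, against 46.2 and 47.2 CPM. Of these lists 1 of 7, 2 of 5 and 2 of 5 tested genes rose and 1 fell in each, where 29.9% and 22.8% of all genes did. So few genes allow no comparison of shares. The part that other cells play in the rises of interferon, matrix and steroidogenic genes was not tested.

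**Figure D5:**
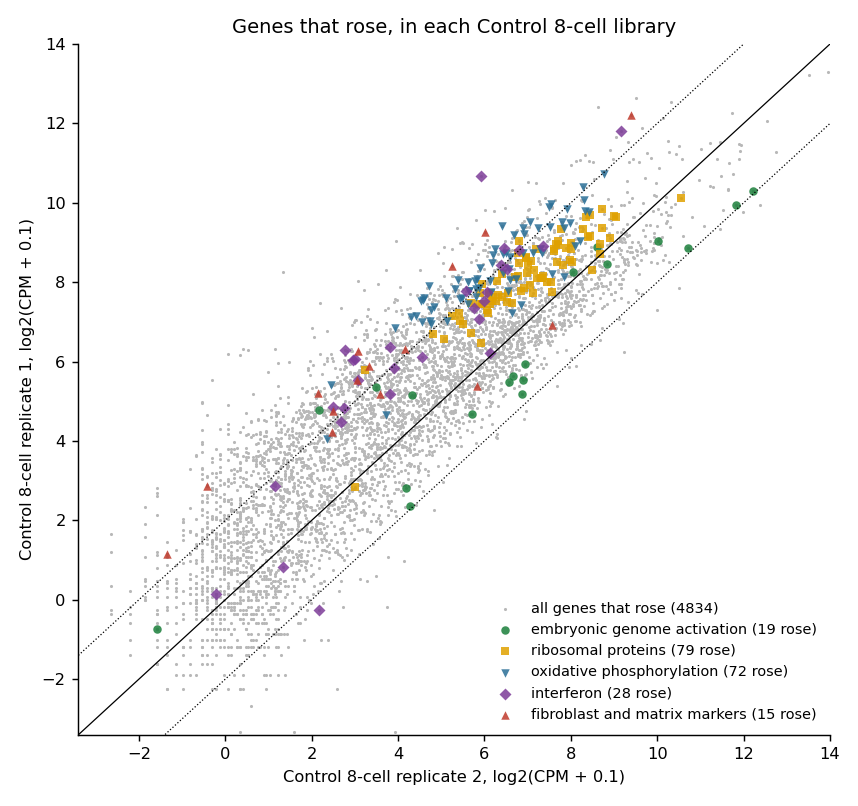
Level of each of the 4834 risen genes in Control 8-cell replicate 1 (y axis) and replicate 2 (x axis), both as log2 of CPM + 0.1, with the line of equality and dotted lines at 4-fold. Most of the risen fibroblast and matrix markers (red), interferon genes (purple) and oxidative phosphorylation genes (blue) lie above the line of equality, and most genome activation genes (green) lie below it.

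Among the 2637 risen genes with at least 20 CPM at the 8-cell stage, 554 were at least 4 times higher in replicate 1 than in replicate 2, and 364 had a METTL7A 8-cell mean under 0.1 times the Control 8-cell mean. Both held for 330 genes, which summed to 104507 and 14022 CPM in the Control 8-cell libraries, against 1260.0 and 1256 CPM in the Control 2-cell libraries, and to 1483 and 1548 CPM in the METTL7A 8-cell libraries. Neither held for 2049 genes, and these summed to 452385 and 447611 CPM in the Control 8-cell libraries, against 96687 and 95635 CPM in the Control 2-cell libraries. The sets were cut on the ratio of the replicates, so that their sizes and sums are a description and support nothing.

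Several steep rises were shared evenly by the 8-cell libraries, and the following genes were chosen for that after their values were seen. DPPA4, a chromatin protein of pluripotent cells, was at 19.3 and 27.4 CPM in the 8-cell libraries, against 0 counts in the 2-cell libraries (at least 366-fold, adjusted p = 0.000221). FOLR1, a folate receptor, was at 236 and 255 CPM, against 0.248 and 0.216 CPM (adjusted p = 1.57e-05). The actin-sequestering peptide TMSB4X, one of the most abundant transcripts of the 8-cell libraries, was at 9569.7 and 11774 CPM, against 1520.2 and 1605 CPM (2.77 ± 0.36, adjusted p = 0.000394).

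The 10 named genes of lowest log2 fold change were ITGA11, LLGL2, FLNC, TRPV6, ADAMTS4, PIM3, NELFB, ZNF541, CTDP1 and PPP2R3B. FLNC, an actin cross-linker, fell to 4.44 and 8.51 CPM in the 8-cell libraries, against 212 and 229 CPM in the 2-cell libraries (-5.09 ± 0.46, adjusted p = 0.000102), and ADAMTS4, a matrix protease, to 2.19 and 2.82 CPM, against 75.6 and 80.6 CPM (-4.96 ± 0.40, adjusted p = 7.46e-05). PIM3, a serine and threonine kinase, was the most abundant of them at the 2-cell stage, at 10.6 and 20.3 CPM, against 458 and 483 CPM (-4.93 ± 0.49, adjusted p = 0.000147). In all 10 both 8-cell libraries were at or under 20.3 CPM, and the smaller 2-cell value was 17.7 times (PPP2R3B) to 27.8 times (ITGA11) the larger 8-cell value. The rule picked genes of lowest log2 fold change without overlap between the stages, so this separation describes the choice and tests nothing.

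The stage change of METTL7A-injected embryos shares no sample with that of Control embryos, though the filter, scaling and estimate of the spread were shared. METTL7A itself was at 18748 and 38113 CPM in the METTL7A 8-cell libraries, against 47718 and 42836 CPM in the METTL7A 2-cell libraries. In Control embryos it was at 7.36 and 7.57 CPM at the 8-cell stage, against 19.1 and 14.2 CPM at the 2-cell stage (log2 fold change -1.16 ± 0.44, adjusted p = 0.0506, and 0.0499 and 0.0337 without 8-cell replicate 1 and 2). The injected RNA thus stood out in every METTL7A library. Of the 16149 genes tested 6496 (40.2%) were called in METTL7A-injected embryos, of which 3733 (23.1%) rose and 2763 (17.1%) fell. Of the 4834 genes that rose in Control, 3006 (62.2%) also rose there, which was 80.5% of the genes that rose in METTL7A-injected embryos, and of the 3682 that fell, 2151 (58.4%) also fell, which was 77.9% of those that fell. An opposite call was made for 19 of the risen and 3 of the fallen genes. ZAR1, at log2 fold changes of -3.94 in Control and -3.54 in METTL7A-injected embryos, DUXA, at 9.55 and 10.54, and H2AFZ, at 10.04 and 10.49, did not differ between them past the threshold (adjusted p of the difference 0.658, 0.559 and 0.711). Maternal genes had 22 falls in Control and 15 in METTL7A-injected embryos of 39, and genome activation genes 19 and 19 rises of 26. Interferon genes had 28 rises in Control and 3 in METTL7A-injected embryos of 35, oxidative phosphorylation genes 72 and 35 of 76, and ribosomal proteins 79 and 78 of 80. The test of the difference itself called 2 genes (0.0124%), both with the higher stage change in Control, STC1 and LOC100139670, and 0 in the other direction (0.0%), with 2588 genes at an unadjusted p under 0.05 and 917 called by DESeq2. It could hardly call a gene with 0 counts in both 2-cell groups, because neither stage change then has a fitted base. CYP11A1 was such a gene, with a difference of 12.45 and an SE of 37896. The count of 2 therefore says nothing about genes of that kind. IFI6, at 13.71 in Control and 3.67 in METTL7A-injected embryos, did not pass the edgeR test of the difference (unadjusted p = 0.0251, adjusted p = 0.253). Apart from STC1 and LOC100139670 no gene passed in this fit. The interferon genes are therefore not shown to differ gene by gene, nor shown to be alike.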

How the data were processed

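RNA was measured in 8 libraries of 2-cell and 8-cell embryos, 2 each from Control and METTL7A-injected embryos, prepared with SMART-Seq v4 and Nextera XT, which keep no strand, per the labels' protocols. The deposited values are raw counts per gene. Trim Galore 0.6.10, FastQC, STAR 2.7.11b, Subread 2.0.6 and DESeq2 1.44.0 are named in the submitters' processing notes, and the genome build is not given in the sources used here. Reads of overlapping and antisense genes cannot be told apart. A row without a gene name, with 0.184% to 0.950% of the counts of the Control libraries, was left out. Genes were filtered with filterByExpr (count 10, total 15), scaled by TMM and tested with edgeR 4.0.16 (R 4.3.3) by the quasi-likelihood test, with all 4 groups sharing 1 estimate of the spread, contrasts of 8-cell over 2-cell, and Benjamini-Hochberg adjustment over all genes tested at 0.05. All adjusted p-values are two-sided and from this fit unless another tool is named. Values after ± are the size of the log2 fold change divided by the square root of its F statistic, an approximate SE. The script was tested on simulated data. Bounds of folds use a floor of 3 counts over the 2-cell group, and intervals are at 95%.

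Named genes were the 10 highest and 10 lowest log2 fold changes among genes with a symbol that passed the threshold, averaged at least 20 CPM in the higher stage, did not overlap between the stages and kept their call without each Control library in turn, up to 4 passing and 2 not passing genes of each list, and textbook genes of the stage. Genes named otherwise were chosen after their values were seen, which holds for ACCSL, EHMT1, EHMT2, TRIM28, DPPA4, FOLR1, TMSB4X, STC1 and LOC100139670. The members and the gene lists were chosen with earlier results of these data known. Replicate numbers were shared between groups, but same-numbered libraries did not deviate together (correlations of replicate differences -0.0278 to 0.0815), so they were not taken as pairs. Alternatives were other scalings, no filter, DESeq2 1.42.0, the groups of 1 comparison alone, a replicate block, summed 2-cell libraries, a 2-fold minimum and each library left out. Blastocyst libraries were not used.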

Additional observations from a re-analysis of the deposited data

Results flagged for a closer look

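The stage change of 2 genes differed between Control and METTL7A-injected embryos by the test of the difference itself (edgeR, adjusted over all genes tested). STC1, which encodes the secreted glycoprotein stanniocalcin, was at 221 and 130.01 CPM in the Control 8-cell libraries, against 3.96 and 3.81 CPM in the Control 2-cell libraries. In METTL7A-injected embryos it was at 7.68 and 6.53 CPM at the 8-cell stage, against 23.4 and 57.0 CPM at the 2-cell stage. It rose in Control (log2 fold change 5.50, adjusted p = 0.000124) and fell in METTL7A-injected embryos (-2.50, adjusted p = 0.0029), a difference of 8.00 ± 0.70 (SE, adjusted p = 0.0155).

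LOC100139670, which carries no gene name here, was at 129.9 and 46.7 CPM in the Control 8-cell libraries, against 0.124 and 0.130 CPM in the Control 2-cell libraries, and at 0.295 and 0 CPM in the METTL7A 8-cell libraries, against 0.569 and 0.797 CPM in the METTL7A 2-cell libraries. It rose in Control (9.37, adjusted p = 0.000124) and did not pass in METTL7A-injected embryos (-2.10, adjusted p = 0.111), with a difference of 11.47 ± 1.24 (SE, adjusted p = 0.0464). Both genes were higher in Control 8-cell replicate 1 than in replicate 2, and without replicate 1 the differences were 7.56 and 10.55 (adjusted p = 0.00763 and 0.00782). Both calls were lost without either Control 2-cell replicate (adjusted p 0.0666 and 0.0714 for STC1, 0.135 and 0.132 for LOC100139670), with these replicates summed, and without either METTL7A 8-cell replicate (adjusted p 0.33 and 0.502 for both genes). That of LOC100139670 was also lost without either METTL7A 2-cell replicate (adjusted p = 0.249 and 0.372) and with DESeq2's size factors (0.0702). The smallest difference over all alternatives was 7.19 for STC1 and 10.55 for LOC100139670.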

How the results depend on the processing

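The Control count of 8516 called genes (4834 higher, 3682 lower) stayed between 6444 and 9075 under other scalings, no filter, DESeq2, Control libraries alone and a replicate block (8296 called with the block), and was 8204 with a 2-fold minimum. With the 2-cell libraries summed it was 5404 (2933 higher), and with single libraries left out it ranged from 5127 to 10759 called, 2896 to 5855 higher and 2231 to 4904 lower. These fits leave a lone library in a stage, which is assumed to vary like the other groups. Without scaling beyond total counts the median log2 fold change of all genes moved to -0.07, against 0.18, and in METTL7A-injected embryos the share of called genes that were higher was 41.4% (3000 higher, 4246 lower), against 57.5%. The METTL7A count was 3276 to 4560 with single libraries left out. The difference of the stage changes is the least stable count. Against 2 genes it was 1 with DESeq2's size factors, 1354 without the filter, 917 with DESeq2, 24 with the replicate block and 0 with the 2-cell libraries summed, and 0 to 4568 with single libraries left out, of which 4568 came without Control 8-cell replicate 2 and 56 without replicate 1. The block changed no Control call of a named gene from passing to not passing. THBS1, a matrix glycoprotein that did not pass (2.09), was at -1.62 without 8-cell replicate 1 and 2.99 without replicate 2, and SLC28A3, a nucleoside transporter that did not pass (0.30), at 0.89 and -0.79. With Control libraries alone 5 of 234 named genes lost their call. The 234 include genes that had not passed, and many of the others were picked for a small p or a kept call. The number therefore says little about called genes at large. The cause was not tested. Genes with few counts in a stage are limited by depth.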
